A study of Mus musculus with 8 samples.

Results

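The canonical histone genes are described here in E14 mouse embryonic stem cells, with their reads in the presence and absence of Klf4 and the RNA polymerase II contacts between them. Members were taken by name: genes whose current symbol is H2ac, H2bc, H3c or H4c followed by a number or H1f1 to H1f5, and genes whose older symbol began with Hist1 to Hist4. This gave 69 of 52636 gene identifiers, of which 5 code for H1, 20 for H2A, 19 for H2B, 12 for H3 and 13 for H4. RefSeq lists 3 of the 69 (H2ac14, H2bu1-ps and H2af-ps2) as pseudogenes, and H1f6, the testis linker histone, was left out.

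E14 is an established mouse embryonic stem cell line. Unmodified cells (WT) and cells with a knockout of Klf4 (KO), a zinc-finger transcription factor of pluripotent cells, were compared, with 2 RNA libraries and 2 HiChIP samples per genotype. The labels give every sample the same culture descriptions: 15% serum, and either LIF at 10 ng/mL with the MEK inhibitor PD0325901 at 1 µM and the GSK3 inhibitor CHIR99021 at 3 µM, or LIF at 1000 U/mL. The sources used here do not give which of these applied to which assay, or whether the KO libraries came from 1 edited clone or several, so p-values measure the spread between these libraries only.

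Canonical histone genes supply the histones that package newly copied DNA, and most are transcribed in S phase. They are short, lack introns and lie in clusters, and most of their mRNAs end in a stem-loop bound by SLBP in place of a poly(A) tail. The clusters gather in the nucleus at histone locus bodies, where the factor NPAT is concentrated.

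On mouse build GRCm38 (mm10), 55 members lay on chromosome 13, 10 on chromosome 3, 3 on chromosome 11 and 1 on chromosome 6. The chromosome 13 members formed a proximal cluster of 24 genes at chr13:21715711-22043658 and a distal cluster of 30 genes at chr13:23531044-23934913, and H2af-ps2 lay apart from both. The 2 clusters were separated by 1487385 bp. RefSeq placed 255 genes in the whole stretch, among them 77 tRNA genes and 75 genes or pseudogenes of the Vmn1r vomeronasal receptor family. The chromosome 3 members lay within chr3:96219885-96270192.

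Promoters of 5 members are printed because the expression and contact results below turn on these genes or on anchors that cover them. Each is the 250 bases before the annotated start, 5′ to 3′ on the gene's strand, from RefSeq on GRCm38.p6: chr13:23533625-23533874 (+ strand) for H2ac10, chr13:23571150-23571399 (+) for H2bc8, chr13:23745522-23745771 (-) for H3c3, chr13:23581318-23581567 (+) for H4c4 and chr13:23738557-23738806 (+) for H1f2. Capitals mark matches on either strand to the TATA-box letters TATAA, to the CCAAT box, to the octamer ATTTGCAT and to a pair of CACCC-type motifs of the kind KLF factors read, which are GGGCGTG on the one hand and GGGTGTG on the other. Neighbouring matches may overlap.
H2ac10: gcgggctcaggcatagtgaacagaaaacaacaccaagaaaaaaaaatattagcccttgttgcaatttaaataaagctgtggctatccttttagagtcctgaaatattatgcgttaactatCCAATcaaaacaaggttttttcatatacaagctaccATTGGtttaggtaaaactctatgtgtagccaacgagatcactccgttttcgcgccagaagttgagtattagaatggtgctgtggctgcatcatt
H2bc8: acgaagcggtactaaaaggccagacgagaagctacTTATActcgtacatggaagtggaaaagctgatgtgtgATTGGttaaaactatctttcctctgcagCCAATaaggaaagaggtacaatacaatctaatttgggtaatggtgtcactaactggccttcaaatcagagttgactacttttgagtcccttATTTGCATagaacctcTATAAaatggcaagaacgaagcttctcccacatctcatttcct
H3c3: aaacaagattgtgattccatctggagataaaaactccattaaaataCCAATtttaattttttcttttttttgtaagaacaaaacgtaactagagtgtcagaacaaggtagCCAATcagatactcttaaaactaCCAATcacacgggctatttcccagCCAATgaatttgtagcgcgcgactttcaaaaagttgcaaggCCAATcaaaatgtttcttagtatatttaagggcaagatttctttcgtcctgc
H4c4: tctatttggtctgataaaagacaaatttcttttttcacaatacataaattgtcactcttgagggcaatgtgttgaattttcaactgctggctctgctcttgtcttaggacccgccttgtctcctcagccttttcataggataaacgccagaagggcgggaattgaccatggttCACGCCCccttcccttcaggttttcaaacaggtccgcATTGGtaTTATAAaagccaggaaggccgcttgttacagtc
H1f2: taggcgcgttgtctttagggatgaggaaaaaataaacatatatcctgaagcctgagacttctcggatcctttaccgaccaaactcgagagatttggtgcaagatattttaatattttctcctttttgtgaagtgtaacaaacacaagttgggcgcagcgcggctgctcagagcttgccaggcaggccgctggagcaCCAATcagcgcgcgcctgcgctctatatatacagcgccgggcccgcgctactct

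Promoter windows of this kind were found for 61 members (62 windows, beside 32851 windows in the whole table). CCAAT occurred in 82.3% of the members' windows and in 33.8% of all windows. It was present in every H1, H2A and H2B window and in 3 of 12 H4 windows. TATAA occurred in 64.5% of the members' windows against 22.8% of all. The octamer, the letters read by POU-domain factors such as OCT1, occurred in 14 members' windows (22.6% against 1.60% of all), 7 of them H2A and 7 H2B. H2ac8 and H2bc8 start on opposite strands and share their promoter, so 1 octamer there counts for both genes. The same holds for H2ac12 with H2bc12 and for H2ac1 with H2bc1. The first and the second CACCC-type motif each occurred in 4.84% of the members' windows, against 7.55% and 6.93% of all. The first occurred in 3 of 12 H4 windows (H4c4, H4c11 and H4c12) and in no other class. The second occurred in 2 of 12 H4 windows (H4c17 and H4c18) and in 1 of 10 H3 windows (H3c8). The H4c4 match lies 77 bases before its start. H3c3 holds 5 CCAAT matches, and H2ac10 holds 2 and no octamer. The members' windows had a median GC content of 44.8%, against 52.4% for all windows. The matches describe letters in these windows and are not measured binding.

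The libraries held 8287497 to 9762190 reads in genes each, and log CPM (counts scaled to a common library total) correlated at 0.959 within WT, 0.969 within KO and 0.884 to 0.919 between genotypes. Klf4 itself had 2882 and 2421 reads in the WT libraries and 0 in both KO libraries. All 8 stem cell markers passed the expression filter, and 1 of them was called, Lin28a, which rose in KO (log2 fold change 2.02, adjusted p = 0.0038 by edgeR). Of 10 fibroblast markers 3 passed the filter, and 0 were called in either direction by edgeR (1 at an unadjusted p under 0.05).

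Canonical histone genes gave few reads. Of the 69 members, 8 had none in any library, 26 had 1 to 9 in all 4 libraries together and 35 had 10 or more. The highest total was 395 (H2bc4). The members together had 412 and 652 reads in WT replicates 1 and 2, with 531 in KO library B and 289 in library F. On the CPM scale, with library totals scaled by TMM, these sums were 57.3 ± 19.2 in WT and 48.9 ± 20.8 in KO (SD, n = 2), and the genotypes overlapped. In bulk RNA, fewer cells expressing a gene and less RNA per cell cannot be told apart. The sources used here do not give whether poly(A) RNA was selected. Members have near-identical copies, and reads with several alignments (17.5% to 18.9% of the records in each file) were not counted, so the counts of single members are uncertain. The strand setting of the counting is likewise not given.

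By class, H4 was the one whose summed reads separated the genotypes, with 60 and 90 reads in WT and 40 and 35 in KO (8.08 ± 2.41 against 4.47 ± 0.456 CPM, SD, n = 2). H1 had 89 and 106 reads in WT and 134 and 61 in KO. H2A had 46 and 83 in WT and 83 and 37 in KO. H2B had 124 and 205 in WT and 172 and 120 in KO. H3 had 93 and 168 in WT and 102 and 36 in KO. In H1, H2A, H2B and H3 the CPM ranges of the genotypes overlapped. KO library F had the lowest count of all 4 libraries in each class. No p-value was computed for these sums. Such a separation is common with 2 libraries per genotype. Of all genes tested, 26.0% had both KO libraries above both WT libraries and 27.5% had them below. The H4 genes also differed among themselves. H4c2 had 8 and 15 reads in WT and 2 and 1 in KO, and H4c14 had 0 and 1 in WT and 2 and 3 in KO. H4c4 and H4c9 are given below.

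**Figure D1:**
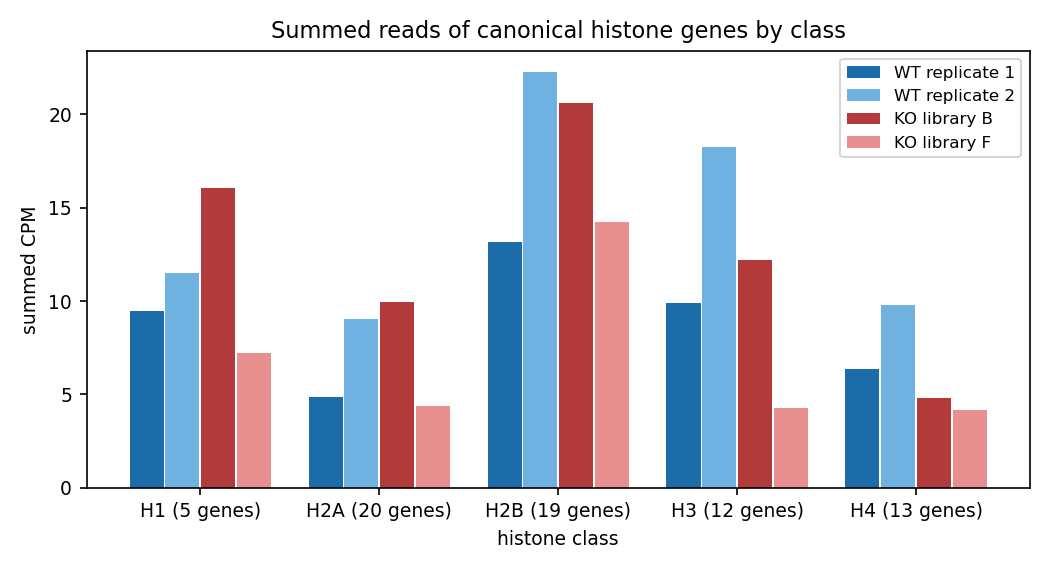
Summed CPM (y axis, from 0) of the canonical histone genes of each class (x axis), with 1 bar per RNA library. The H4 bars are the ones in which both WT libraries (6.38 and 9.79 CPM) stand above both KO libraries (4.79 and 4.15 CPM).

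Only 14 members had enough reads for the test, edgeR's quasi-likelihood test with Benjamini-Hochberg adjustment over all 15517 genes tested. The 47 other members with reads had at most 32 in total, and the 14 tested had at least 39. Of the 14, 1 was called higher in KO and 0 lower, beside 8.30% of all genes tested called in either direction (2.96% higher, 5.34% lower). DESeq2 also called 1 higher and 0 lower, beside 10.6% of all genes (4.07% higher, 6.53% lower), and so did limma voom, beside 7.76% (2.78% and 4.98%). At an unadjusted p under 0.05, 4 of the 14 passed (28.6%), beside 24.4% of all genes tested. Those 4 are the members that reached the expression filter through 1 genotype alone, H2ac10 through KO and H3c3, H4c4 and H2bc12 through WT, so a difference in that direction was favoured by the filter. The median log2 fold change of the 14 was -0.40, beside -0.00 over all genes tested, and it was -1.27 without KO library B and 0.16 without KO library F. Among the 61 members with reads, both KO libraries stood above both WT libraries for 3 (4.92%) and below for 15 (24.6%), and the groups overlapped for 43. Over all genes tested the shares were 26.0% above, 27.5% below and 46.5% overlapping. The 61 include the 47 members with too few reads for the test, so their shares are not like for like with these. Of the 14 tested members, 1 stood above, 4 stood below and 9 overlapped.

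**Figure D2:**
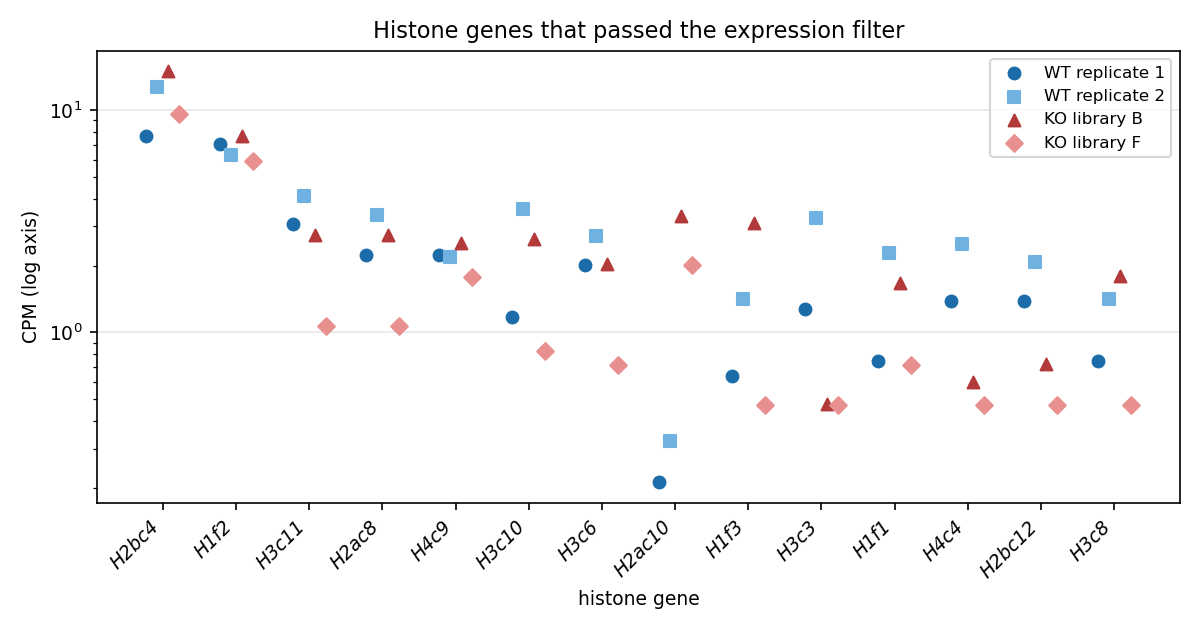
CPM (y axis, log axis) of the 14 histone genes that passed the expression filter (x axis, ordered by mean CPM), with 1 point per RNA library. H2ac10 is the gene whose KO points lie far above its WT points, and H3c3, H4c4, H2bc12 and H3c11 have both KO points below both WT points.

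The member that rose was H2ac10 (ENSMUSG00000061991, formerly Hist1h2af), an H2A gene of the distal cluster at chr13:23533875-23534378. It had 2 and 3 reads in WT, and 28 (library B) and 17 (library F) in KO. Both KO libraries were above both WT libraries. The log2 fold change was 3.25 (SE 0.69, adjusted p = 0.028 by edgeR), or 9.53-fold on the fitted scale, from 0.269 ± 0.0805 to 2.68 ± 0.948 CPM (SD, n = 2). It passed the expression filter through its KO libraries. The call was lost without WT replicate 1 (adjusted p = 0.056), without KO library B (0.15) and with no expression filter (0.12). The 2 members that share its anchor in the contact files had few reads: H4c8, an H4 gene, had 5 and 9 reads in WT and 4 and 1 in KO, and H3c8, an H3 gene, had 7 and 13 in WT and 15 and 4 in KO.

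The other tested H2A gene, H2ac8, had 21 and 31 reads in WT and 23 and 9 in KO (log2 fold change -0.55, adjusted p = 0.63 by edgeR). Among H2B genes, H2bc4 had 72 and 117 reads in WT and 125 and 81 in KO (0.27, adjusted p = 0.73). Its annotated span of 8282 bp is far longer than that of a typical histone gene, so its read total is not a level that can be set beside theirs. H2bc12 had 13 and 19 reads in WT and 6 and 4 in KO (-1.51, adjusted p = 0.19), its groups did not overlap, and it passed the filter through WT alone.

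Of the H3 genes, H3c3 had 12 and 30 reads in WT and 4 in each KO library, and it passed the expression filter through its WT libraries. Its log2 fold change was -2.22 (SE 0.72, adjusted p = 0.10 by edgeR), and of the alternatives run, it passed the threshold only when WT replicate 1 was left out (-2.75, adjusted p = 0.037). H3c11 had 29 and 38 reads in WT and 23 and 9 in KO (-0.91, adjusted p = 0.39). H3c6 had 19 and 25 in WT and 17 and 6 in KO, and H3c10 had 11 and 33 in WT and 22 and 7 in KO. For H3c6 and H3c10 the groups overlapped.

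Of the H4 genes, H4c4 had 13 and 23 reads in WT and 5 and 4 in KO, with no overlap, and also passed the filter through WT alone (log2 fold change -1.83, SE 0.66, adjusted p = 0.13 by edgeR). H4c9 had 21 and 20 in WT and 21 and 15 in KO, a log2 fold change of -0.04 with a 95% interval from -1.22 to 1.14. Both genes code for the same core histone, and 1 lies in each chromosome 13 cluster.

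No linker histone gene passed the test. H1f2 had 66 and 58 reads in WT and 64 and 50 in KO, a log2 fold change of 0.03 with a 95% interval from -0.86 to 0.91. H1f3 had 6 and 13 in WT and 26 and 4 in KO, and H1f1 had 7 and 21 in WT and 14 and 6 in KO. The H1f3 reads of KO library B were above, and those of library F below, both WT libraries. Of the untested linker genes, H1f4 had 6, 9, 17 and 0 reads and H1f5 had 4, 5, 13 and 1, in the order WT replicates 1 and 2, KO libraries B and F.

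Genes that act on histone supply were better measured. Of 20 genes of histone transcription and mRNA 3′-end processing, all tested, 1 rose and 0 fell, with a median log2 fold change of 0.43. Srrt, which links capped RNA to its processing factors, had 1279 and 1447 reads in WT and 2830 and 2989 in KO (1.24, adjusted p = 0.019 by edgeR). Slbp, the stem-loop binding protein, had 735 and 673 reads in WT and 964 and 1082 in KO (0.69, adjusted p = 0.11). Npat had 451 and 268 in WT and 432 and 587 in KO (0.65, adjusted p = 0.25).

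Of 25 histone chaperones, 0 rose and 1 fell, with a median of 0.25. The one that fell was Dnajc9, an H3-H4 chaperone, with 750 and 855 reads in WT and 315 and 280 in KO (-1.28, adjusted p = 0.020 by edgeR). Of 31 S-phase genes, 1 rose and 0 fell, with a median of 0.20. That gene was Ccne1, which codes for cyclin E1, with 817 and 1030 reads in WT and 2162 and 2286 in KO (1.41, adjusted p = 0.014).

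Of 12 replication-independent and variant histone genes, 11 were tested, 0 rose and 2 fell, with a median of -0.40. Both that fell code for macroH2A. Macroh2a2 had 477 and 553 reads in WT and 188 and 129 in KO (-1.55, adjusted p = 0.019 by edgeR), and Macroh2a1 had 1440 and 1631 in WT and 715 and 417 in KO (-1.29, adjusted p = 0.038). H1f0, the replacement linker histone, had 534 and 711 in WT and 316 and 323 in KO (-0.82, adjusted p = 0.10). H3f3a, H3f3b and H2az1 had log2 fold changes of 0.20, -0.48 and 0.04, and none passed the threshold.

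Of the 108 other genes of the chromosome 13 stretch with an identifier in the count files, 7 were tested, 1 rose and 0 fell. The one that rose was Zfp322a, a zinc-finger gene, with 295 and 250 reads in WT and 508 and 509 in KO (1.05, adjusted p = 0.041 by edgeR).

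Contacts were measured by HiChIP. Neighbouring chromatin ends are joined by ligation, fragments bound by RNA polymerase II are enriched with an antibody, and each joined fragment that is sequenced counts as a paired-end tag (PET) between a pair of sites called anchors. There is 1 pooled file per genotype, so contacts have no replicate check and no test, and their 95% intervals (Clopper-Pearson) cover counting error only. The WT pool held 35189 PETs in 19914 anchor pairs and the KO pool 401726 PETs in 118475. Anchors were listed separately in each pool, with a median width of 1999 bp in WT and 2932 bp in KO. Depth, anchor width and genotype therefore cannot be told apart in what follows. Reads from near-identical members may also be placed at the wrong copy, within a cluster or between clusters. Their part in the PET counts was not tested.

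An anchor within 2500 bp of a member was taken as a histone anchor. There were 35 in WT, covering 136537 bp and 66 members, and 26 in KO, covering 183356 bp and 63 members. The widest held 5 members in WT (9047 bp) and 9 in KO (29285 bp, from H1f2 to H1f1). Of the WT histone anchors 94.3% overlapped an anchor of the KO pool, and of the KO histone anchors 96.2% overlapped one of the WT pool. The share over all anchors was not computed, so these shares do not set histone anchors apart from others.

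Histone genes were joined to one another by many PETs. In WT, 176 pairs of different histone anchors held 920 PETs, or 2.61% of the pool (2.45% to 2.79%). In KO, 84 pairs held 772 PETs, or 0.192% (0.179% to 0.206%). The WT share was 13.6 times the KO share, and between 7.46 and 18.3 times under the other ways of counting. The counts of PETs depend on how the anchors are cut, since PETs inside a wide anchor are not pairs of different anchors. With anchors merged across the pools into 28 intervals, PETs between intervals numbered 685 in WT and 772 in KO, and 1222 and 1781 with those inside an interval included. On these intervals 95 interval pairs were joined in WT and 84 in KO, and 68 were joined in both, 71.6% of the WT pairs and 81.0% of the KO pairs.

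Within the distal cluster, 88 WT pairs held 568 PETs and 37 KO pairs held 524. Within the proximal cluster, 29 WT pairs held 170 PETs and 15 KO pairs held 80. On chromosome 3, 10 WT pairs held 59 PETs and 9 KO pairs held 97. On the merged intervals the distal cluster had 408 PETs between intervals in WT and 524 in KO, so the order of its raw counts turned. The proximal cluster had 118 and 80 and chromosome 3 had 36 and 97. These counts are not scaled to the pools, which held 35189 PETs in WT and 401726 in KO. As a share of the pool, the pairs of different anchors within the distal cluster held 1.61% in WT and 0.130% in KO. The WT anchors of the distal cluster were narrower and more numerous than the KO anchors.

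In WT, the best-supported histone pair joined the anchor at H1f2 to the adjacent anchor at H3c3 and H2bc3 with 40 PETs, the pair ranked 2 among all pairs of different anchors. The anchor at H3c3 and H2bc3 was joined to that at H2ac4 and H3c2 by 39 PETs. The anchor of 5 genes from H2ac8 to H3c4, which covers the shared H2ac8 and H2bc8 promoter printed above, was joined to the anchor at H4c4 by 36 PETs in WT and 48 in KO. In KO, the anchor holding H1f3 and H4c6 was joined to that at H3c6 by 79 PETs, which ranked 66 among all pairs. Among the 100 best-supported pairs of each pool, 28 were histone pairs in WT and 1 in KO. The last of the 100 had 10 PETs in WT and 66 in KO. Of all pairs of different anchors, histone pairs made up 1.09% in WT and 0.0801% in KO. The WT pairs with 40 and 39 PETs lie inside the wide KO anchor from H1f2 to H1f1, so neither can be a pair in KO.

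The anchor that holds H2ac10, with H4c8 and H3c8, had 115 PETs to 17 other histone anchors in WT and 132 PETs to 11 in KO. PETs within the anchor numbered 32 in WT and 101 in KO, and PETs to sites outside the histone genes 12 in WT and 83 in KO. This anchor measured 6472 bp in WT and 8409 bp in KO, and the 3 genes in it cannot be told apart.

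PETs also joined the 2 clusters on chromosome 13 to each other, and the part of misplaced reads in them was not tested. In WT, 48 pairs spanning 1491 to 2043 kb held 116 PETs, 0.330% of the pool (0.272% to 0.395%). In KO, 22 pairs held 65 PETs, 0.0162% (0.0125% to 0.0206%). One contact carried 25 of the WT PETs, between the anchor of 5 genes from H2bc13 to H2bc14 at the proximal end and the anchor at H3c3 and H2bc3, over 2027 kb. It ranked 13 among all WT pairs. The same proximal anchor was joined in KO to the wide anchor from H1f2 to H1f1 by 16 PETs, over 2033 kb. Between the merged intervals that hold these anchors, the count was 31 in WT and 16 in KO.

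**Figure D3:**
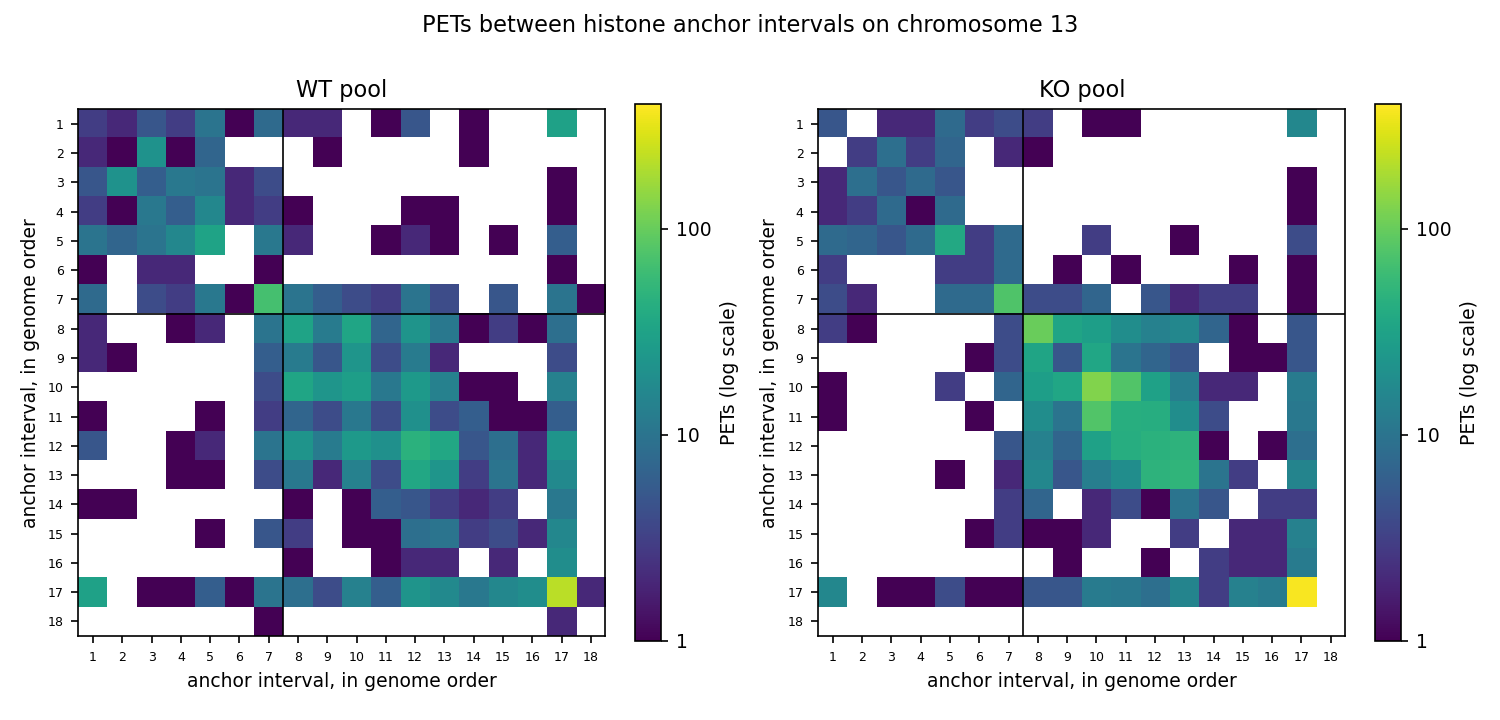
PETs (colour, log scale, white for none listed) between histone anchor intervals merged across the pools, numbered along both axes in genome order, in the WT pool (left) and the KO pool (right), with PETs inside an interval on the diagonal. Black lines part the proximal cluster (intervals 1 to 7) from the distal cluster (8 to 18), and the off-diagonal blocks hold the 116 WT and 65 KO PETs between them.

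Among all pairs of a like distance, histone pairs had more PETs each. Histone anchors were also wider, with a median of 3444 bp in WT beside 1999 bp for all anchors. In KO the medians were 5382 bp and 2932 bp. Anchor width was not matched, so its part in these PET counts was not tested. At 1 to 2.5 Mb, histone pairs held 116 of 1226 PETs in WT, 9.46% (7.88% to 11.2%), and 65 of 9441 in KO, 0.688% (0.532% to 0.877%). Their mean was 2.42 PETs per pair in WT, beside 1.11 for all pairs of that distance, and 2.95 in KO, also beside 1.11. Under 20 kb the means were 13.5 beside 3.13 in WT and 23.3 beside 8.20 in KO. No histone pair spanned over 2.5 Mb in either pool. Pairs were listed within 1 chromosome, and by position only a pair with H2af-ps2 could have spanned that far.

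**Figure D4:**
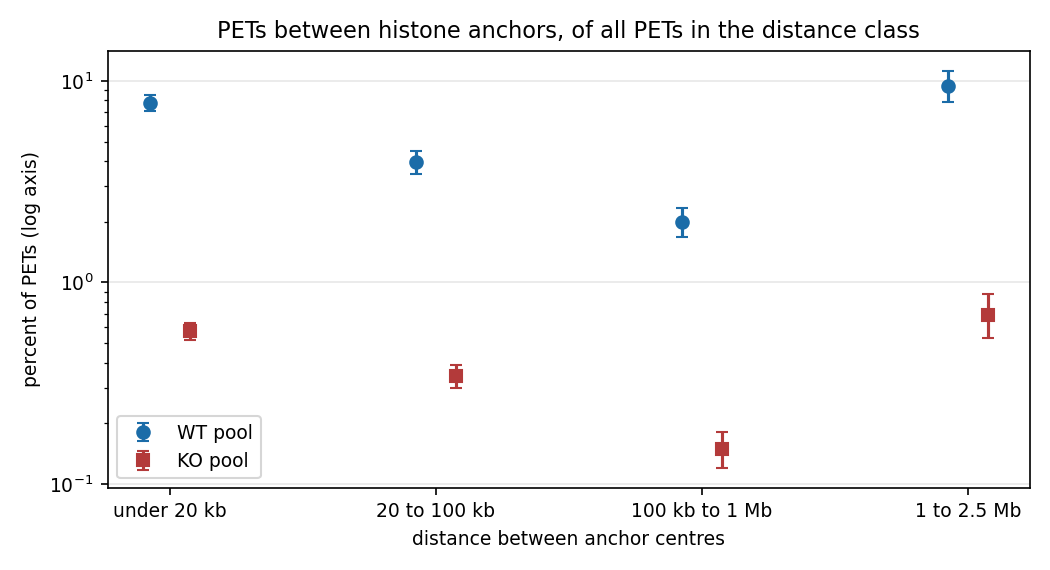
Share of the PETs of each distance class (x axis) that joined 2 histone anchors (y axis, percent, log axis) in the WT and KO pools, with 95% Clopper-Pearson intervals for counting error. Shares fall from 7.80% to 1.99% in WT up to 1 Mb and stand at 9.46% at 1 to 2.5 Mb, and the KO shares run from 0.571% to 0.149% and then 0.688%.

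Histone anchors also reached other sites, with 180 PETs to 82 sites in WT and 664 PETs to 197 sites in KO. In WT the leading site lay at chr13:23423264-23424799 (1536 bp), beside 3 tRNA genes and Abt1, a gene for a nucleolar protein. This WT site took 16 PETs from 7 histone anchors. In KO the leading site was chr13:23501139-23519093, a wider site (17955 bp) with 10 tRNA genes, which took 64 PETs from 14 histone anchors. Sites with a tRNA gene, 6 of the 82 in WT and 30 of the 197 in KO, took 41 of the 180 PETs in WT and 252 of the 664 in KO. The leading KO site alone gave 64 of the 252. The share of all anchors that lie at tRNA genes was not computed. On chromosome 3, a site at Gm24830 took 13 PETs in WT and 13 in KO.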

How the data were processed

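Gene expression (RNA-seq) and RNA polymerase II HiChIP were measured in WT and Klf4 KO E14 cells. The submitters' processing notes name HiC-Pro 2.11.4, DESeq2 1.18.1, HTSeq 0.9.1 and HISAT2 2.1.0, and the build mm10. The authors deposited whole-number, unnormalised read counts per gene and, in 1 pooled file per genotype, PET counts per anchor pair. The sources used here do not give the loop caller. The members and gene lists were chosen with earlier results of these data known. Records that name no gene were left out (64.0% to 65.5% of each file).

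Counts were tested with edgeR 4.0.16 (filterByExpr, TMM, quasi-likelihood test) in R 4.3.3 at an adjusted p of 0.05. On simulated counts for KO against WT over 15517 genes, the test called 26 of 100 genes that had been given a 2-fold change and 91 of 100 given a 4-fold change. The changed genes all had more reads than any member other than H2bc4 and H1f2, so these rates do not cover the other members. Alternatives were DESeq2 1.42.0, limma 3.58.1 voom, other scalings and filters, and each library left out. Genes named are members past the threshold, the 12 members with the highest mean CPM, the leading member of each class, up to 4 called genes per list, and Npat, Slbp, H3f3a, H3f3b, H2az1 and H1f0; other members were chosen after their values were seen. PET shares used scipy 1.17.1, over all PETs of a pool. The WT columns carry replicate numbers and the KO columns the letters B and F.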

Additional observations from a re-analysis of the deposited data

How the results depend on the processing

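No paired analysis was possible because the KO columns carry letters and not the labels' replicate numbers. With no expression filter, 0 members were called higher (edgeR, 61 tested, 5 at an unadjusted p under 0.05), and 1 gene of all was called higher and 1 lower. The pathway genes counted here include the other genes of the chromosome 13 stretch, of which Zfp322a was called in the fit reported. With no expression filter 0 pathway genes were called, against 6 in the fit reported. The cause was not tested. Leaving out 1 library at a time gave 0 to 1 members called higher and 0 to 1 lower, 387 to 1151 genes of all higher and 618 to 1366 lower, and 2 to 10 pathway genes. Without WT replicate 1, the genes of all and the pathway genes called were most numerous and 0 members were called higher. The pathway count was 3 without KO library B and 2 without KO library F. The members' median log2 fold change ran from -1.27 without KO library B to 0.16 without KO library F. Signs of members that were not called turned in these fits. Their log2 fold changes ran from -0.081 to 0.65 for H2bc4, -0.17 to 0.21 for H1f2 and -0.31 to 0.20 for H4c9. They ran from -1.49 to 0.53 for H3c10, -1.08 to 1.60 for H1f3, -1.07 to 0.64 for H1f1 and -1.16 to 0.74 for H3c8. Signs likewise turned for H3f3a (-0.012 to 0.41) and H2az1 (-0.23 to 0.32). DESeq2, limma voom, other scalings and the filter at 1 CPM kept the members' counts of calls.

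The PET share of histone pairs was 4.26% in WT and 0.233% in KO over pairs with at least 2 PETs, 41.8% and 5.60% of the PETs on chromosome 13, and 0.233% in KO over pairs spanning at least 20 kb. Between the chromosome 13 clusters the share was 0.443% in WT over pairs with at least 2 PETs, 5.68% and 0.544% of the PETs on chromosome 13, and 0.643% and 0.0379% over pairs spanning at least 20 kb. Of 3 alternatives chosen after seeing the data, including pairs of an anchor with itself gave 3.47% and 0.443%, merging anchors across the pools gave 1.95% in WT, and counting PETs between different anchors only gave 3.90% and 0.326%, and 0.492% and 0.0274% between the clusters. Every alternative gave a higher share in WT than in KO. Low read counts limit the expression results, and pooling limits the contact results to a description.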
